A study of Mus musculus with 6 samples.

Results

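The 9 genes *Cpt1a*, *Slc25a20*, *Cpt2*, *Acadvl*, *Acadl*, *Acadm*, *Hadha*, *Hadhb* and *Etfdh* encode enzymes and a carrier of mitochondrial fatty acid oxidation. They were chosen by name from the 17854 genes listed for each library, and all 9 passed the filter on low counts that left 14289 genes for testing. RNA was sequenced in bulk in 3 MSC-derived and 3 endogenous libraries. The MSC-derived libraries are of Tomato+ cells that the paper describes as derived from injected MSCs (mesenchymal stromal cells). The endogenous libraries are of resident articular Tomato+ cells, and all 6 libraries are labelled male, C57BL/6 and chondrocyte. The MSC-derived cells were sorted from repaired articular cartilage of C57BL/6 mice with knee osteoarthritis after transection of the anterior cruciate ligament. These mice had received in the knee Tomato+ MSCs taken from the inguinal white adipose tissue of *Prrx1-Cre; R26tdTomato* mice. The endogenous cells were sorted from the articular cartilage of *Prrx1-Cre; R26tdTomato* mice of matching age and sex, for which no surgery or injection is described. In the donor mice and in the endogenous group alike, Cre driven by *Prrx1*, a gene of limb mesenchyme, switches on the red protein tdTomato for good. Tomato therefore marks descent from *Prrx1*-expressing cells and not the present cell type. Surgery, injection, host and cell origin changed together between the groups and cannot be told apart. The ligament was cut in young adult mice and MSCs were injected weeks later, but the age at harvest and the time after injection of the mice used for RNA-seq are not given in the sources used here. The study's methods give 3 mice for each group while the labels name no animals, so p-values measure the spread between these libraries.

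Fatty acids reach the mitochondrial matrix as acyl-carnitines. The outer membrane enzyme carnitine palmitoyltransferase 1 makes them from acyl-CoA, a carrier of the inner membrane takes them in, and carnitine palmitoyltransferase 2 turns them back into acyl-CoA. Inside, acyl-CoA dehydrogenases of different chain length preference start each round of beta-oxidation, the trifunctional protein completes it for long chains, and electrons pass through the electron transfer flavoprotein and its dehydrogenase to ubiquinone. The step made by carnitine palmitoyltransferase 1 is the main point of control, blocked by malonyl-CoA. Chondrocytes, which live in tissue without blood vessels, are known to draw most of their energy from glycolysis.

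The expected counts summed to between 22060628 and 24881796 per library, and 3 counts, taken as the floor for counting error alone, were 0.121 to 0.136 CPM (counts scaled to a common library size). The 3 MSC-derived libraries were close to each other, with a biological coefficient of variation of 6.77% against 35.3% for the 3 endogenous libraries. Endogenous replicate 1 stood apart, with 3459 genes at 0 counts against 1338 and 1395 in the other two. Results for the 9 genes that rest on it are given with and without it, as are many results for other genes. The MSC-derived libraries did not carry the chondrocyte markers at the level of the endogenous libraries. All 12 of 12 chondrocyte markers fell, with a summed level of 1140 to 1180 CPM against 53400 to 55000 CPM, and so did 10 of 10 osteoblast markers (3180 to 3260 CPM against 102000 to 109000 CPM) and 9 of 9 mesenchymal markers (4600 to 4640 CPM against 70900 to 81200 CPM). Higher in the MSC-derived libraries were 10 of 10 general leukocyte markers (10600 to 10800 CPM against 345 to 479 CPM), 12 of 12 macrophage markers (14000 to 14100 CPM against 68.9 to 81.4 CPM), 10 of 10 neutrophil markers (43700 to 45700 CPM against 1860 to 2660 CPM) and 10 of 10 erythroid markers (26500 to 26800 CPM against 3940 to 5780 CPM). The same held for 3 of 5 B cell markers (189 to 202 CPM against 13.2 to 20.7 CPM), 5 of 5 T cell markers (175 to 190 CPM against 1.18 to 1.89 CPM) and 4 of 6 endothelial markers (74.6 to 79.5 CPM against 16.5 to 27.4 CPM). With endogenous replicate 1 left out, the B cell markers *Ms4a1* (log2 fold change 2.32) and *Pax5* (2.25) were called higher too. So were the endothelial markers *Tek* (1.33) and *Emcn* (1.21). Nearly all of the T cell sum was *Cd4*, with 3970 to 4058 counts in an MSC-derived library, while *Cd3e*, *Cd3d*, *Cd3g* and *Cd8a* had 25 to 89 counts each. The calls of *Cd3e*, *Cd3d* and *Cd8a* were lost without MSC-derived replicate 1, 2 or 3 (edgeR adjusted p = 0.0537 to 0.118), so they are uncertain. No defining marker of these lists was at 0 in a whole group. Of the adipocyte markers, 3 rose and 4 fell among 7 tested, with a median log2 fold change of -3.15. *Lep* was at 0 in the MSC-derived libraries. Their sum was 334 to 361 CPM against 233 to 256 CPM. The higher sum rested on *Fabp4*, with 4002 to 4605 counts in an MSC-derived and 384 to 537 counts in an endogenous library. The brown adipocyte markers summed to 4.4 to 5.5 CPM against 40.2 to 54.9 CPM, with 2 lower of 2 tested, *Cidea* at 0 in the MSC-derived and *Ucp1* at 0 in the endogenous libraries. The skeletal muscle markers summed to 6.68 to 7.11 CPM against 15.6 to 17.6 CPM, with 1 lower of 5 tested, *Myh1* and *Myh2* at 0 in the MSC-derived libraries and *Myh4* at 0 in the endogenous ones. When endogenous replicate 1 was left out, *Ckm* (2.07) was called higher and *Tnnt3* (-1.6) lower. These marker levels move with every difference described here, and their part in it was not tested. The names MSC-derived and chondrocyte are the study's. In the MSC-derived libraries, mesenchymal and chondrocyte markers were low and leukocyte and erythroid markers high, which is at odds with those names. Which cells gave the RNA was not tested, so the values below describe the libraries as labelled.

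Expression of the fatty acid oxidation enzymes was mostly higher in the MSC-derived cells. Of the 9 genes, 6 rose (*Cpt1a*, *Etfdh*, *Acadl*, *Hadhb*, *Acadm* and *Hadha*), 1 fell (*Acadvl*) and 2 were not called (*Cpt2* and *Slc25a20*) by edgeR's quasi-likelihood test at an adjusted p of 0.05. Over all genes tested, 31.3% were called higher and 30.3% lower, 61.6% in either direction, so that a call by itself was common in this comparison. These shares are also to be set beside the counts of the lists below. The median log2 fold change of the 9 genes, MSC-derived over endogenous, was 0.96, compared with 0.05 over all genes tested. In CPM, 8 of the 9 genes had no overlap between groups, against 72.4% of all genes tested. In bulk RNA, fewer cells of a type and less RNA per cell cannot be told apart. Without endogenous replicate 1, *Cpt2* was also called, which gave 7 higher and 1 lower. Calls were then more common over all genes too, with 5563 higher and 5686 lower of 14728 tested. With all 6 libraries these were 4468 and 4333 of 14289, so further calls made without that library are to be read beside this general rise.

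**Figure D1:**
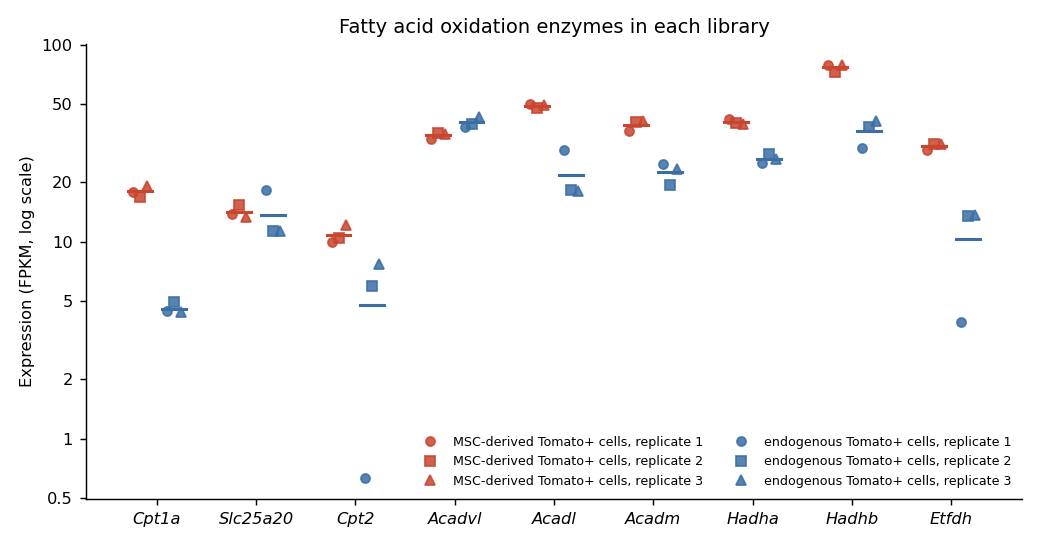
Each point is the FPKM of a gene in 1 library on a log scale, with MSC-derived libraries in red and endogenous libraries in blue, marker shapes for replicates 1 to 3 and a bar at the mean of each group. The groups are separate for 8 of the 9 genes and overlap for *Slc25a20*, and endogenous replicate 1 lies far below the other 2 endogenous libraries for *Cpt2* and *Etfdh*.

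Levels are compared between genes in FPKM, which divides by transcript length. In the MSC-derived cells the order of mean levels was *Hadhb* (76.8 FPKM), *Acadl* (48.9), *Hadha* (40.5), *Acadm* (39.2), *Acadvl* (34.6), *Etfdh* (30.6), *Cpt1a* (18.0), *Slc25a20* (14.1) and *Cpt2* (10.8). *Hadha* and *Acadm* overlapped over the 3 libraries, and every other pair of neighbours in that order was separate. In the endogenous cells *Acadvl* (40.4 FPKM) came first and *Cpt1a* (4.58 FPKM) last. Between them were *Hadhb* (36.4), *Hadha* (26.4), *Acadm* (22.4), *Acadl* (21.8), *Slc25a20* (13.6), *Etfdh* (10.3) and *Cpt2* (4.76). The libraries of *Acadvl* and *Hadhb* overlapped, and from *Acadm* down each gene overlapped the next, so that only *Hadha* was separate from both of its neighbours. *Cpt1a* thus had the lowest mean of the 9 enzymes in the endogenous cells and stood above *Slc25a20* and *Cpt2* in the MSC-derived cells.

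*Cpt1a* (gene 12894), the carnitine palmitoyltransferase 1 of liver and many other tissues, had the largest change of the 9 genes. It had 17.94, 16.91 and 19.07 FPKM in the MSC-derived libraries and 4.43, 4.91 and 4.39 FPKM in the endogenous ones, from 1793, 1620 and 1717 counts against 423, 478 and 447 counts. The groups were far apart and endogenous replicate 1 lay between the other endogenous libraries. The mean was 18.0 ± 1.08 FPKM (SD, n = 3) against 4.58 ± 0.289 FPKM (SD, n = 3), and the fold was 3.62 (log2 fold change 1.86, standard error 0.11, edgeR adjusted p = 4e-06). The call held under all 19 alternatives, and relative to the median of all genes the log2 fold change stayed between 1.59 and 1.89. Among the genes whose log2 CPM, centred over the 6 libraries, was most like that of *Cpt1a* were *Sirt7*, a nuclear deacylase (root mean square difference 0.057), and *Xdh*, which makes uric acid (0.0648).

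*Cpt1a* is one of 3 carnitine palmitoyltransferase 1 genes, and the other two were not called higher. *Cpt1b*, the muscle form, had 0.77, 0.62 and 0.25 FPKM against 1.44, 0.39 and 0.73 FPKM, and the groups overlapped (log2 fold change -0.76, standard error 0.63, edgeR adjusted p = 0.331). *Cpt1c*, the brain form, which has little transferase activity, had 2.09, 2.01 and 2.03 FPKM against 6.37, 8.09 and 6.29 FPKM a log2 fold change of -1.91 (standard error 0.17, edgeR adjusted p = 5.19e-05). Within the summed FPKM of the 3 genes, *Cpt1a* made up 86.3%, 86.5% and 89.3% in the MSC-derived libraries and 36.2%, 36.7% and 38.5% in the endogenous ones. *Cpt1c* made up 9.51% to 10.3% against 52.0%, 60.4% and 55.1%. The leading transcript was therefore *Cpt1a* in every MSC-derived library and *Cpt1c* in every endogenous library. For *Cpt1b* the share was 3.7%, 3.17% and 1.17% against 11.8%, 2.91% and 6.4%, and the groups overlapped. The mean share of *Cpt1a* was 87.4% ± 1.7 (SD, n = 3) against 37.1% ± 1.2 (SD, n = 3), a difference of 50.3 percentage points. An exact two-sided permutation test gave p = 0.1 for *Cpt1a* and for *Cpt1c*, the smallest that 3 against 3 libraries allow, and p = 0.3 for *Cpt1b* (Benjamini-Hochberg over 9 such measures 0.129, 0.129 and 0.338).

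**Figure D2:**
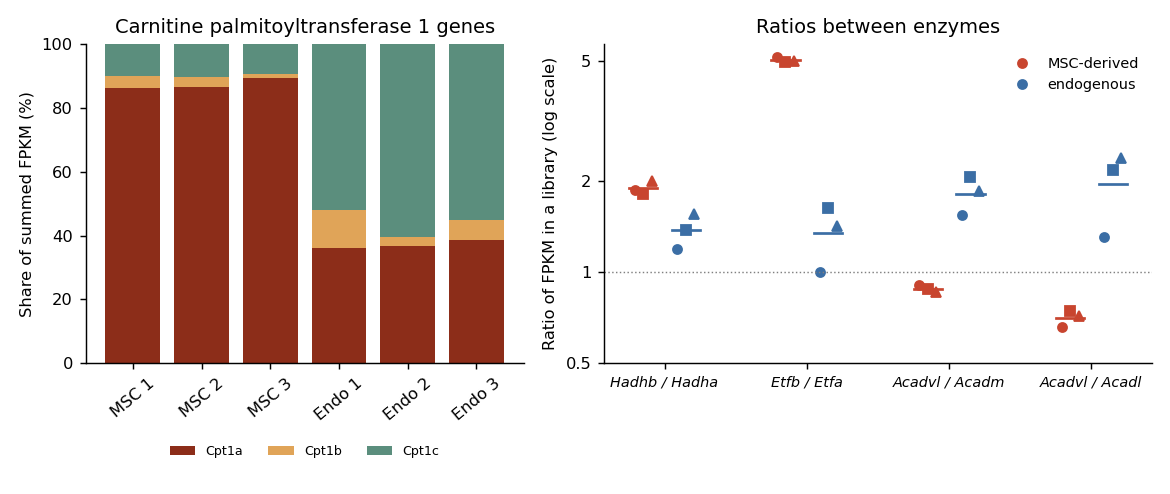
Left, bars stack the share of *Cpt1a*, *Cpt1b* and *Cpt1c* in their summed FPKM (percent) in each of the 6 libraries; right, points give the ratio of the FPKM of 2 genes in each library on a log scale, with circles, squares and triangles for replicates 1 to 3 and a bar at the group mean. *Cpt1a* takes 86.3% to 89.3% in the MSC-derived libraries and 36.2% to 38.5% in the endogenous ones, and each of the 4 ratios separates the groups.

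The sequence before the start of *Cpt1a* is shown because it is the member with the largest change and holds the nuclear receptor hexamer AGGTCA, to which PPAR and related receptors bind. It is the part of the 250 bases before the RefSeq start in which no exon is annotated, on GRCm38.p6 at chr19:3323051-3323284, plus strand, with capitals at the hexamer (on the reverse strand, 94 bases before the start) and at 2 GC boxes, GGGCGG on either strand, to which Sp1 binds.
Cpt1a: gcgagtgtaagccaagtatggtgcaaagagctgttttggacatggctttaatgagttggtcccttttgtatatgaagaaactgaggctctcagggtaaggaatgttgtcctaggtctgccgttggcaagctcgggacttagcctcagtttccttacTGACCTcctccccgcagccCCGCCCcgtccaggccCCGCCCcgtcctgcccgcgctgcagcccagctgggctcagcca
Searched on both strands in the same 250 bases before all 32851 RefSeq starts, AGGTCA was found in 14.0% and in 3 of the 9 members, *Cpt1a*, *Acadvl* and *Acadm*. The direct repeat AGGTCANAGGTCA of PPAR and its partner RXR was found in 0.0335% and in 0 members, and TCAAGGTCA, the site of estrogen-related receptors, which contains AGGTCA, in 0.387% and in 0 members. GGGCGG was found in 32.7% and in 6 members (*Acadl*, *Cpt1a*, *Cpt2*, *Hadha*, *Hadhb* and *Slc25a20*), and the NRF1 site GCGCATGCGC in 0.782% and in *Etfdh*. The only GC box of *Hadha* is also 1 of the 2 of *Hadhb*, because their windows overlap, so these members are not separate finds. These matches describe letters in the windows and no binding was measured.

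The next steps of the carnitine shuttle were not called with all 6 libraries. *Slc25a20* (gene 57279), the carnitine and acyl-carnitine carrier of the inner membrane, had 13.83, 15.30 and 13.26 FPKM in the MSC-derived libraries and 18.31, 11.29 and 11.30 FPKM in the endogenous ones. The groups overlapped, since endogenous replicate 1 lay above and the other 2 endogenous libraries below every MSC-derived library. The log2 fold change was -0.07 (standard error 0.21, edgeR adjusted p = 0.797), and without endogenous replicate 1 it was 0.15 (edgeR adjusted p = 0.252). *Cpt2* (gene 12896), the carnitine palmitoyltransferase of the inner membrane, had 9.98, 10.44 and 12.10 FPKM in the MSC-derived libraries and 0.63, 5.98 and 7.67 FPKM in the endogenous ones. All MSC-derived libraries were above all endogenous ones, but endogenous replicate 1, with 32 counts, was far below the 308 and 413 counts of the other two. With it, *Cpt2* was not called (log2 fold change 1.06, standard error 0.69, edgeR adjusted p = 0.219). Without it the difference was smaller and passed the test (log2 fold change 0.49, standard error 0.131, edgeR adjusted p = 0.00227). The ratio of *Cpt1a* to *Cpt2* in FPKM was 1.8, 1.62 and 1.58 against 7.03, 0.821 and 0.572, so that endogenous replicate 1 lay above and the other 2 endogenous libraries below the MSC-derived ones (exact two-sided permutation p = 1.0).

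The acyl-CoA dehydrogenases moved in different directions. *Acadvl* (gene 11370), which starts on very long chains, was the only 1 of the 9 genes called lower. It had 33.05, 35.47 and 35.13 FPKM in the MSC-derived libraries and 38.29, 39.72 and 43.12 FPKM in the endogenous ones. The groups did not overlap, with a fold of 0.788 (log2 fold change -0.34, standard error 0.09, edgeR adjusted p = 0.00955). The call was lost without MSC-derived replicate 1 (-0.31, edgeR adjusted p = 0.0549) and in a limma fit of log2(FPKM + 1) (-0.22, limma adjusted p = 0.0808). In the GENCODE annotation of GRCm38, 976 of the 2168 exon bases of *Acadvl* (45.0%) are shared with *Dvl2* on the opposite strand, at 6.37 and 7.9 FPKM in the MSC-derived and endogenous cells. No source states that reads were counted by strand, so *Acadvl* is uncertain. Its upstream sequence is shown as that of the member called lower, which also holds the hexamer (capitals, 87 bases before the start). It is on GRCm38.p6 at chr11:70015429-70015678, minus strand.
Acadvl: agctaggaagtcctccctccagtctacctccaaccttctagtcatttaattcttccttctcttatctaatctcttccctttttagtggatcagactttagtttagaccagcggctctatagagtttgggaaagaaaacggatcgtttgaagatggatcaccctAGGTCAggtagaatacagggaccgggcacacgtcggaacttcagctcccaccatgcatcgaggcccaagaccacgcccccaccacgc

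*Acadl* (gene 11363), the long-chain dehydrogenase, had 50.10, 47.48 and 49.16 FPKM against 29.16, 18.20 and 18.13 FPKM. All MSC-derived libraries were above all endogenous ones, of which replicate 1 was the highest. The mean was 48.9 ± 1.33 FPKM (SD, n = 3) against 21.8 ± 6.35 FPKM (SD, n = 3), and the fold was 2.06 (log2 fold change 1.05, standard error 0.19, edgeR adjusted p = 0.00211). *Acadm* (gene 11364), the medium-chain dehydrogenase, had 36.27, 40.34 and 40.91 FPKM against 24.69, 19.27 and 23.34 FPKM. Again the groups did not overlap and endogenous replicate 1 was the highest of its group. The mean was 39.2 ± 2.53 FPKM (SD, n = 3) against 22.4 ± 2.82 FPKM (SD, n = 3), and the fold was 1.61 (log2 fold change 0.69, standard error 0.12, edgeR adjusted p = 0.00157). The levels of the dehydrogenases relative to each other were also compared, with the limits on *Acadvl* given above. The FPKM ratio of *Acadvl* to *Acadm* was 0.911, 0.879 and 0.859 in the MSC-derived libraries and 1.55, 2.06 and 1.85 in the endogenous ones. That of *Acadvl* to *Acadl* was 0.66, 0.747 and 0.715 against 1.31, 2.18 and 2.38. Both ratios were under 1 in every MSC-derived library and above 1 in every endogenous library (exact two-sided permutation p = 0.1 for each, the smallest possible). The sequence upstream of *Acadm* is the third with the hexamer, at its far end (capitals, 249 bases before the start), on GRCm38.p6 at chr3:153944644-153944893, minus strand.
Acadm: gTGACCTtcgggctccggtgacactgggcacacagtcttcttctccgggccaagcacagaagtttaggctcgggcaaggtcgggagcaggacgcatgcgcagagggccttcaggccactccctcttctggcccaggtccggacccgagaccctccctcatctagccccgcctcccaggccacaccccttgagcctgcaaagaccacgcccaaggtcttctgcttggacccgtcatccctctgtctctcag

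*Hadha* and *Hadhb* encode the subunits of the trifunctional protein, which carries out the last 3 reactions of a round of oxidation on long chains. *Hadha* (gene 97212), the subunit with hydratase and dehydrogenase activity, had 42.09, 39.85 and 39.51 FPKM in the MSC-derived libraries and 25.07, 27.80 and 26.22 FPKM in the endogenous ones. *Hadhb* (gene 231086), the thiolase subunit, had 78.60, 72.71 and 79.03 FPKM against 29.94, 38.31 and 40.85 FPKM. Neither gene overlapped between the groups. The fold was 1.41 for *Hadha* (log2 fold change 0.50, standard error 0.08, edgeR adjusted p = 0.00131) and 1.94 for *Hadhb* (log2 fold change 0.96, standard error 0.13, edgeR adjusted p = 0.000409). The FPKM ratio of *Hadhb* to *Hadha* was 1.87, 1.82 and 2.0 in the MSC-derived libraries and 1.19, 1.38 and 1.56 in the endogenous ones. It was higher in every MSC-derived library (1.9 ± 0.0916 against 1.38 ± 0.182, SD, n = 3, exact two-sided permutation p = 0.1, the smallest possible), so the subunits did not rise by the same factor. *Hadha* shares 75 exon bases (1.87%) with *Garem2* on the opposite strand, which had 0.01 and 0.0533 FPKM.

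The genes of the 2 subunits lie head to head on chromosome 5, with RefSeq starts 272 bases apart on opposite strands, so that the windows of 250 bases before them share 228 bases. The stretch between their annotated exons is shown because it lies upstream of both genes, on GRCm38.p6 at chr5:30155163-30155247, written on the plus strand, that of *Hadhb*, with GC boxes in capitals.
Hadhb and Hadha: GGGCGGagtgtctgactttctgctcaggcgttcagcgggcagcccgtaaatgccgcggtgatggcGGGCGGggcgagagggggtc

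*Etfdh* (gene 66841), the dehydrogenase that hands electrons from the flavoprotein to ubiquinone, had 29.01, 31.31 and 31.45 FPKM in the MSC-derived libraries and 3.93, 13.46 and 13.62 FPKM in the endogenous ones. All MSC-derived libraries were above all endogenous ones, of which replicate 1, with 194 counts against 671 and 710, was far the lowest. The fold was 2.72 (log2 fold change 1.44, standard error 0.41, edgeR adjusted p = 0.0182). Without endogenous replicate 1 the log2 fold change was 1.00, and without MSC-derived replicate 2 or 3 it was 1.44 or 1.43 and missed the threshold (edgeR adjusted p = 0.0539 and 0.0552). The flavoprotein itself, which is not among the 9 genes, was called higher in both of its subunits, by unequal amounts. *Etfb* had 354.61, 348.73 and 350.84 FPKM against 48.42, 74.50 and 67.71 FPKM (log2 fold change 2.34, standard error 0.16, edgeR adjusted p = 9.38e-06). *Etfa* had 69.15, 70.27 and 70.23 FPKM against 48.46, 45.81 and 47.78 FPKM (log2 fold change 0.45, standard error 0.07, edgeR adjusted p = 0.00127), but was not called on log2(TPM + 1) (limma adjusted p = 0.995). The FPKM ratio of *Etfb* to *Etfa* was 5.13, 4.96 and 5.0 against 0.999, 1.63 and 1.42 (exact two-sided permutation p = 0.1, the smallest possible). In the endogenous cells the subunits were therefore nearer to equal levels than in the MSC-derived cells.

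**Figure D3:**
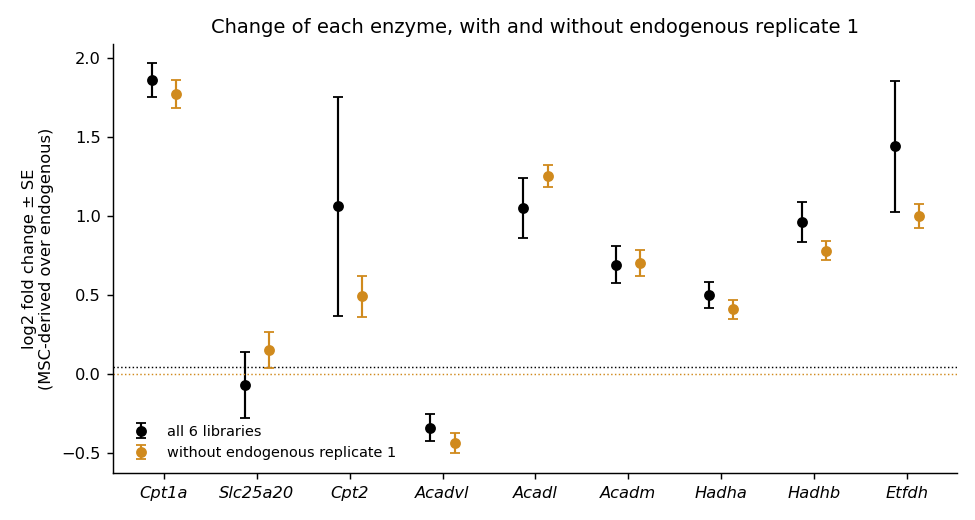
Points give the log2 fold change of each gene (MSC-derived over endogenous) and bars its standard error, for all 6 libraries in black and without endogenous replicate 1 in orange, with dotted lines at the median over all genes tested. *Cpt2* drops from 1.06 to 0.49 and *Etfdh* from 1.44 to 1.00 while their errors shrink, *Slc25a20* moves from -0.07 to 0.15, and *Cpt1a* stays highest.

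Endogenous replicate 1 did not shift the 9 genes in a common direction. It was the highest endogenous library in FPKM for *Slc25a20*, *Acadl* and *Acadm*, and the lowest for *Cpt2*, *Etfdh*, *Hadha*, *Hadhb* and *Acadvl*. The scale of the values mattered more for the smaller changes. The sum of FPKM over all genes was 808701 to 813572 in an MSC-derived and 504768 to 573603 in an endogenous library, and TPM, which is scaled to the same sum in every library, moved the median log2 difference of all genes to -0.274. Over all genes, 3120 were called higher and 5898 lower of 15571 tested by limma on log2(TPM + 1). On log2(TPM + 1), *Cpt1a*, *Hadhb* and *Etfdh* were still called higher and *Acadvl* lower. *Acadl* (0.63, limma adjusted p = 0.0625), *Acadm* (0.24, limma adjusted p = 0.218) and *Hadha* (0.06, limma adjusted p = 0.628) were not called on that scale. Relative to the median of all genes under each setting, the changes kept their sign in 8 of the 9 genes: *Acadl* 0.88 to 1.25, *Acadm* 0.52 to 0.76, *Hadha* 0.33 to 0.58, *Hadhb* 0.76 to 1.05, *Etfdh* 1.00 to 1.64, *Cpt2* 0.49 to 1.58 and *Acadvl* -0.50 to -0.24, besides *Cpt1a* above. *Slc25a20* ranged from -0.23 to 0.14.

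As a set, the 9 enzymes were compared with the genes of the TCA cycle, which burns the acetyl-CoA they deliver. The mean log2(FPKM + 1) of the 9 genes lay below that of the 17 TCA cycle genes with differences of -0.964, -0.934 and -0.899 in the MSC-derived libraries and of -1.29, -1.05 and -1.01 in the endogenous ones. The gap was narrower in every MSC-derived library, with a mean difference of 0.185 (exact two-sided permutation p = 0.1, the smallest possible). Without endogenous replicate 1 the difference was 0.1. Of the 17 TCA cycle genes, 12 rose, 0 fell and 5 were not called, with a median log2 fold change of 0.64. On log2(TPM + 1), 7 were called higher and 3 lower by limma, with a median of 0.21. The largest increases were in *Sdhc*, a membrane subunit of succinate dehydrogenase (1.44, standard error 0.11), and *Idh3g*, a subunit of isocitrate dehydrogenase (1.25, standard error 0.19). *Ogdh* and *Dld*, parts of the oxoglutarate dehydrogenase complex, had log2 fold changes of 0.03 and -0.05 and were not called. Without endogenous replicate 1 these were -0.07 and 0.25, *Dld* was then called higher (edgeR adjusted p = 0.00764), and 14 genes of the cycle were called higher.

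Of 11 genes for further steps of mitochondrial oxidation, 7 rose, 1 fell and 3 were not called, with a median log2 fold change of 0.92. On log2(TPM + 1), 4 of the 11 were called higher and 2 lower by limma, with a median of 0.53. *Acads*, the short-chain acyl-CoA dehydrogenase, had 44.87, 43.38 and 41.78 FPKM against 18.03, 13.53 and 13.74 FPKM (log2 fold change 1.40, standard error 0.13, edgeR adjusted p = 6.07e-05). *Acaa2*, the medium-chain thiolase, rose too (0.82, standard error 0.11, edgeR adjusted p = 0.000421). *Hadh*, the dehydrogenase of medium and short chains, fell by 0.50 (standard error 0.09, edgeR adjusted p = 0.00271), with 23.18, 25.83 and 23.95 FPKM against 33.12, 30.39 and 31.10 FPKM. *Acad9*, which also helps to assemble respiratory complex I, *Acad10* and *Acad11* were not called (0.23, 1.69 and -0.27). Without endogenous replicate 1, *Acad10* (1.07) was called higher and *Acad11* (-0.40) lower. Of the 4 auxiliary enzymes for unsaturated fatty acids, *Ech1* (1.03, standard error 0.12) and the isomerase *Eci2* (0.88, standard error 0.10) rose, and the isomerase *Eci1* (0.28) and the reductase *Decr1* (-0.34) were not called. *Eci1* was called higher without endogenous replicate 1 (0.32, edgeR adjusted p = 0.011).

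**Figure D4:**
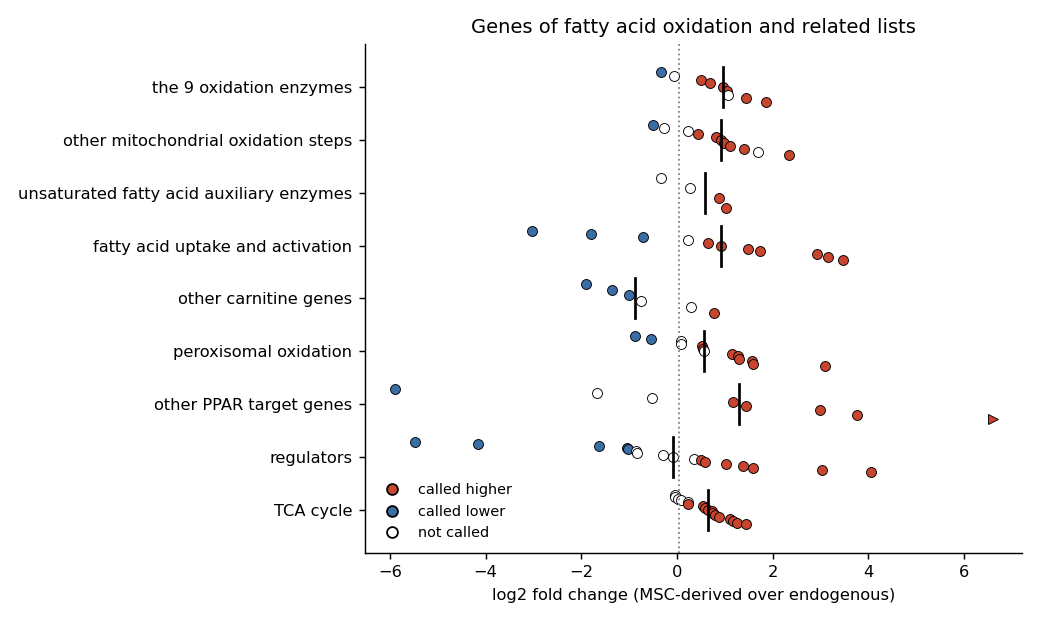
Each point is the log2 fold change of a gene (MSC-derived over endogenous), filled red where called higher, blue where called lower and white where not called, with a bar at the median of each list and a dotted line at the median over all genes tested. The triangle at the right is *Ucp3*, drawn at its lower bound of 6.6. The medians are 0.96 for the 9 enzymes, 0.92 for other mitochondrial steps, 0.64 for the TCA cycle and -0.88 for other carnitine genes.

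The list of other carnitine genes also holds *Cpt1b* and *Cpt1c*, described above. Of 6 such genes, 1 rose, 3 fell and 2 were not called, around a median log2 fold change of -0.88. *Slc22a5*, the carnitine transporter of the plasma membrane, had 5.17, 4.98 and 5.98 FPKM against 15.46, 11.55 and 11.10 FPKM and fell by 1.36 (standard error 0.17, edgeR adjusted p = 0.000277). *Crat*, which makes short acyl-carnitines, rose by 0.77 (standard error 0.08, edgeR adjusted p = 0.000147) but was not called on log2(TPM + 1) (0.29, limma adjusted p = 0.056). *Crot*, its peroxisomal counterpart for medium chains, was not called (0.29) but was called higher without endogenous replicate 1 (0.53, edgeR adjusted p = 0.000198).

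Genes that supply fatty acids changed by larger amounts in both directions. Of 11 tested genes of uptake and activation, 7 rose, 3 fell and 1 was not called, around a median log2 fold change of 0.92, and *Acsl6* was not tested. The share that rose was 63.6%, against 31.3% of all genes tested, and the share that fell was 27.3%, against 30.3%. By limma on log2(TPM + 1), 6 of 12 were called higher and 4 lower, with a median of 0.38. *Fabp5* (3.48, standard error 0.11) and *Fabp4* (3.15, standard error 0.13), intracellular fatty acid carriers found in macrophages and fat, rose most. *Fabp4* had 384.59, 397.46 and 367.82 FPKM against 32.78, 42.17 and 43.56 FPKM, and it is also on the adipocyte marker list. *Slc27a3*, an acyl-CoA synthetase, fell by 3.04 (standard error 0.29), and *Fabp3*, the carrier of heart and muscle, fell by 1.80 (standard error 0.47, edgeR adjusted p = 0.0124). The call of *Fabp3* was lost without MSC-derived replicate 1 (-1.70, edgeR adjusted p = 0.0534) or endogenous replicate 3 (-1.42, edgeR adjusted p = 0.0522). *Slc27a1*, a fatty acid transporter, was not called (0.23, and -0.02 without endogenous replicate 1).

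The peroxisome shortens very long and branched fatty acids by enzymes of its own. Of its 13 genes, 8 rose, 2 fell and 3 were not called, with a median log2 fold change of 0.56. By limma on log2(TPM + 1), 6 were called higher and 2 lower, with a median of 0.11. *Abcd2*, a transporter of very long acyl-CoA, rose by 1.60 (standard error 0.12, edgeR adjusted p = 1.87e-05). The other transporter named, *Abcd3*, fell by 0.87 (standard error 0.14). *Acaa1b*, a thiolase, had 0.81, 0.67 and 0.90 FPKM against 0.0, 0.02 and 0.21 FPKM (log2 fold change 3.09, standard error 1.02, edgeR adjusted p = 0.0317). It is a close copy of *Acaa1a*, and its call was lost without MSC-derived replicate 1, 2 or 3 (edgeR adjusted p = 0.109, 0.0937 and 0.114) or endogenous replicate 2 (0.111), so it is uncertain. *Pecr* (0.09), *Amacr* (0.08) and *Ehhadh* (0.56) were not called. Without endogenous replicate 1, *Amacr*, a racemase for branched chains, was called lower (-0.41, edgeR adjusted p = 0.0445), and without endogenous replicate 2 *Pecr* stood at -0.04.

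The PPARs, nuclear receptors that act on these genes, differed between the groups. *Pparg*, the PPAR of adipocytes and macrophages, had 123.55, 122.77 and 133.36 FPKM in the MSC-derived libraries and 7.96, 5.47 and 6.09 FPKM in the endogenous ones (log2 fold change 4.05, standard error 0.12, edgeR adjusted p = 1.94e-07). *Ppard*, the PPAR found in most tissues, had 6.62, 6.13 and 7.10 FPKM against 12.89, 12.87 and 12.30 FPKM (log2 fold change -1.05, standard error 0.11, edgeR adjusted p = 0.000133). *Ppara*, the PPAR of liver, was near 0 in the MSC-derived cells, with 0.02, 0.0 and 0.03 FPKM against 0.31, 0.13 and 0.30 FPKM (log2 fold change -4.17, standard error 0.91, edgeR adjusted p = 0.00536). The leading PPAR was thus *Pparg* in every MSC-derived library and *Ppard* in every endogenous library. Among the 17 tested regulators, 7 rose (41.2%), 5 fell (29.4%) and 5 were not called, and *Esrrg* was not tested. Over all genes tested, 31.3% rose and 30.3% fell, and the median log2 fold change was 0.05 against -0.08 for the regulators. Leaving out endogenous replicate 1 gave 7 regulators higher and 6 lower. On log2(TPM + 1), 5 were called higher and 7 lower by limma. *Ppargc1b*, a coactivator of mitochondrial genes, had 1.58, 1.28 and 1.65 FPKM against 0.0, 0.33 and 0.17 FPKM (3.04, edgeR adjusted p = 0.0245), but it missed the threshold in DESeq2 (DESeq2 adjusted p = 0.0848) and without MSC-derived replicate 1, 2 or 3 (edgeR adjusted p = 0.0784, 0.0647 and 0.0817) or endogenous replicate 3 (0.0671). Its relative *Ppargc1a* was not called (-0.84, edgeR adjusted p = 0.47), with at most 0.27 FPKM in a library. *Prkaa2*, a catalytic subunit of the energy sensor AMPK, fell by 5.48 (standard error 0.48, edgeR adjusted p = 4.1e-05), with 0.04, 0.03 and 0.02 FPKM against 1.77, 1.04 and 0.80 FPKM. *Prkaa1*, the other catalytic subunit and the more abundant in every library, rose (1.02, standard error 0.12, edgeR adjusted p = 0.000241), with 9.12, 9.14 and 9.68 FPKM against 3.72, 4.49 and 4.43 FPKM. *Acacb*, a gene for an enzyme that makes malonyl-CoA, which blocks carnitine palmitoyltransferase 1, had at most 0.31 FPKM in a library (-1.64, edgeR adjusted p = 0.028). That call was lost when any of 5 libraries, endogenous replicate 1 excepted, was left out (edgeR adjusted p = 0.053 to 0.123) and with the replicate number as a block (0.071). Other genes that act on malonyl-CoA are not described here, so *Acacb* does not stand for them. *Nrf1* (0.36), *Sirt3* (-0.30) and *Tfam* (-0.08; 0.02 without endogenous replicate 3), a transcription factor, a deacetylase and a factor of mitochondrial DNA, were not called.

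Other genes known as targets of PPARs were split as well. Of 8 tested, 5 rose, 1 fell and 2 were not called, with a median log2 fold change of 1.31, also with *Ucp3* at its lower bound, and *Fgf21* was not tested. *Ucp3*, an uncoupling protein of muscle, had 6.16, 5.49 and 7.27 FPKM in the MSC-derived libraries and 0 counts in all 3 endogenous libraries. With 3 counts per library as the floor, it was at least 97.1-fold higher. Its neighbour in the family, *Ucp2*, had 1148.57, 1103.94 and 1119.49 FPKM against 65.12, 81.88 and 80.58 FPKM (3.77, standard error 0.11). *Pdk4*, the kinase that shuts off pyruvate entry when fat is burned, went the other way, with 0.37, 0.28 and 0.24 FPKM against 18.81, 15.06 and 15.16 FPKM. It fell by 5.90 (standard error 0.21, edgeR adjusted p = 4.09e-07). *Creb3l3*, a transcription factor of liver, was not called (-0.53), and it was called lower without endogenous replicate 1 (-1.16). Over the 8 tested genes of this list, 5 were called higher and 3 lower without that library.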

How the data were processed

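Bulk RNA-seq of 3 MSC-derived and 3 endogenous libraries of articular Tomato+ cells was used. Libraries were made from total RNA with the TruSeq RNA kit, and strand-specific counting is not stated. Reads were cleaned by the authors in SOAPnuke, mapped with HISAT2 and Bowtie2, and turned into gene values by RSEM. The submitters' processing notes name Bowtie2 2.2.5, RSEM 1.2.12 and mm9, while the paper's methods name other versions of Bowtie2 and RSEM. Which versions gave the deposited values is not settled. For each library the authors deposited expected counts, not normalized, FPKM (per transcript length and library size) and TPM. The deposited signal, a further normalized value per gene, was not tested. The 24 per-sample columns, which include the untested normalized values, were matched to samples by name. Left aside were 8 columns of the authors' group averages, and 0 per-sample columns had no match.

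Expected counts were rounded, which changed 20.6% of values, and fitted in R 4.3.3 by edgeR 4.0.16 (TMM, filterByExpr, glmQLFit, glmQLFTest), with Benjamini-Hochberg adjustment over 14289 genes and a threshold of 0.05. Standard errors of log2 fold changes were derived from the F statistic (the change over the root of F). Single ratios and shares were compared by exact permutation over libraries (SciPy 1.17.1), and the ratios between enzymes were added after the values were seen. The fit was tested on simulated counts, with 100 genes changed 2-fold, 100 changed 4-fold and the same spread in both groups. Among genes with a log2 CPM of at least 3, it recovered 51.9% of 2-fold and 100% of 4-fold changes. Over all genes it recovered 40% and 71%, and 7.5% of its calls were false. A change near 2-fold can therefore go uncalled. In the data the spread was unequal (6.77% against 35.3%) and 61.6% of genes were called, so these rates need not hold for this comparison. The 9 genes, the pathway lists and the marker lists were chosen with earlier results of these data known. Named genes were the 9 members, in each list the 2 largest increases and 2 largest decreases among called genes and up to 3 uncalled genes of highest FPKM, and a set of fixed pathway genes and markers. For the called member with the largest change, the 3 genes with the most similar centred log2 CPM (prior count 2) were also named, and a few genes that this rule selects are not reported here. *Lep*, *Cidea*, *Myh1*, *Myh2*, *Myh4*, *Tnnt3*, *Cd4*, *Cd3e*, *Cd3d*, *Cd3g*, *Cd8a*, *Ms4a1*, *Pax5*, *Tek*, *Emcn*, *Prkaa1*, *Dvl2* and *Garem2* are outside that rule and were named after their values were seen. Upstream sequences are those of RefSeq (GRCm38.p6, all 9 genes matched by symbol), and exons are those of GENCODE on GRCm38, while the labels name mm9 for the expression values. Alternatives were DESeq2 1.42.0, limma 3.58.1 on log2(FPKM + 1), with or without a filter at a mean of 0.1, and on log2(FPKM + 0.1), voom with sample weights, other normalizations and filters, the replicate number as a block and each library left out in turn. Limma on log2(TPM + 1) was chosen after seeing the data.

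The replicate numbers did not pair the samples. Counting intervals do not cover molecules lost in amplification. Figures were drawn with matplotlib 3.10.9.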

Additional observations from a re-analysis of the deposited data

How the results depend on the processing

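The number of enzymes called higher was 6 or 7 in every analysis of counts or FPKM with all libraries, ranged from 5 to 7 when 1 library was left out, and was 3 on log2(TPM + 1), a scale added after the data were seen. The number called lower was 0 in limma on log2(FPKM + 1) and log2(FPKM + 0.1) and ranged from 0 to 1 when 1 library was left out. The log2 fold change of *Slc25a20*, -0.07, changed sign to 0.05 with library totals alone, 0.08 and 0.09 in limma with pseudocounts of 1 and 0.1, 0.08 without a filter on FPKM, 0.18 with voom weights and 0.15 without endogenous replicate 1 (range with 1 library left out -0.21 to 0.15). The cause was not tested. With voom weights *Cpt2* was called (0.58, voom adjusted p = 0.00797). From expected counts in place of FPKM, the difference in share was 43.2 percentage points for *Cpt1a* and -38.9 for *Cpt1c*. The left-out ranges were 49.3 to 50.9 and -47.8 to -43.6.

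Replicate numbers did not pair the samples: deviations of same-numbered libraries from their group means correlated by 0.0129, 0.00221 and 0.0178. Those of differently numbered libraries correlated by -0.0145 to 0.00824, so that all of these values were small. With the replicate number as a block, 6 of the 9 enzymes were called higher and 1 lower, while over all genes 4103 were called higher and 3920 lower, against 4468 and 4333 without it. At this depth all 9 genes were well above the floor, the lowest being *Cpt2* in endogenous replicate 1 with 32 counts.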
